A study of Mus musculus with 6 samples.

Results

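The mitotic kinases, kinesins and spindle genes are a module of 36 genes whose products carry a cell from the end of G2 through mitosis to cytokinesis. A gene was followed where the platform annotation pairs a probe set with that gene alone, which held for 35 of the 36 genes with 79 of the 45037 probe sets that are not controls. The array names 18193 genes in that way. Ccnb1, the cyclin B1 gene, has no probe set listed under its name alone and was not analysed here. The values given for a gene are those of its brightest probe set (highest mean over all arrays) unless another is named, and its other probe sets were used to see whether they agree.

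The cells were C2C12, an established line of mouse myoblasts (the dividing precursors of muscle fibres), made to carry a tetracycline-inducible integrin alpha7, which is a subunit of the main laminin receptor of muscle. They were kept undifferentiated for 36 h in growth medium with 20% fetal bovine serum and chick embryo extract, without tetracycline (noninduced, 3 arrays) or with tetracycline at 1 µg/ml (induced, 3 arrays), and the question was how raised integrin alpha7 affects myoblast transcription. All 6 samples are of the inducible line, so no sample shows what tetracycline does to cells without the construct. Whether the line is 1 clone, and which promoter drives the construct, is not given in the sources used here. The series describes the 3 samples of each group as biological samples, and p-values set the difference between the groups against the spread between samples of a group.

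Entry into mitosis is driven by Cdk1 bound to cyclins A and B, which the Cdc25 phosphatases switch on. Plk1 and the Aurora kinases then mature the centrosomes, build the spindle and correct faulty attachments of chromosomes, while the spindle checkpoint holds back the anaphase-promoting complex until every kinetochore is attached. Transcripts of these genes accumulate in G2 and M and decline when cells leave the cycle, so they are widely read as a measure of proliferation, and in myoblasts they decline when the cells withdraw from the cycle to form myotubes.

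Many of these genes share 2 short promoter elements, which the choice of members did not use. The first is the cell cycle genes homology region (CHR), searched as TTTGAA, which the DREAM and MuvB complexes are known to bind; the second is the CCAAT box, searched as CCAAT, which the factor NF-Y binds. Both were searched on both strands in RefSeq windows of 300 bases (assembly GRCm38.p6), from 250 bases before the start site to 50 after it. Of the 35 genes, 29 had a window. At least 1 window held CHR in 21 of these 29 genes (72.4%), against 20.2% of the 27025 genes with a window in the whole table. CCAAT was present in 22 of 29 (75.9%), against 41.1% of all genes. Both were present in 18 of 29 (62.1%), against 7.97% of all genes. Of 147 further genes of mitosis with a window, from the list described below, 36.1% held CHR, 56.5% CCAAT and 25.9% both. These shares also lie above those of all genes. An E2F-type site, searched as TTTGGCGC or TTTCGCGC on both strands, was found only in Cdk1 among the 29, against 0.929% of all genes. Matches of different motifs overlapped each other once in the members' windows, and CCAATTGG, which counts as a CCAAT match on both strands, occurred once. A match describes letters in the window and is not evidence of binding.

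The 6 stretches below are shown because they hold both elements before the start site, and they are the first 6 such genes in alphabetical order. Capitals mark CHR (TTTGAA, or TTCAAA where it lies on the other strand) and CCAAT (or ATTGG). The stretch of Ccnb2 lies at chr9:70421561-70421731 on the minus strand. The stretch of Cdc20 lies at chr4:118437344-118437406 on the minus strand. The stretch of Cdk1 lies at chr10:69352913-69353130 on the minus strand. The stretch of Ect2 lies at chr3:27153863-27154002 on the minus strand. The stretch of Kif11 lies at chr19:37376327-37376378 on the plus strand. The stretch of Mki67 lies at chr7:135716462-135716577 on the minus strand.
Ccnb2: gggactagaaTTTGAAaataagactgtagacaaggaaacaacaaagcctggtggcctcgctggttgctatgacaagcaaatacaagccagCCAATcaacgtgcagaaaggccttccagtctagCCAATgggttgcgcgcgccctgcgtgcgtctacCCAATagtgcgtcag
Cdc20: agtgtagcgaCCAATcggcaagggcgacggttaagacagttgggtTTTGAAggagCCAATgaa
Cdk1: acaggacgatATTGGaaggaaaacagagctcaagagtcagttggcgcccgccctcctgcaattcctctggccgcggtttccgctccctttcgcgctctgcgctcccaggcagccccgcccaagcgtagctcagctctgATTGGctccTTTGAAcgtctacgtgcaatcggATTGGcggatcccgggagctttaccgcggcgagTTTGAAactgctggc
Ect2: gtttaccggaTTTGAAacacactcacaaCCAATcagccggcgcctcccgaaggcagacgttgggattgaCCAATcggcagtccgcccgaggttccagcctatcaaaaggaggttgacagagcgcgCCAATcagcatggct
Kif11: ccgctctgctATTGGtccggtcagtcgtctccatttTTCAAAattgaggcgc
Mki67: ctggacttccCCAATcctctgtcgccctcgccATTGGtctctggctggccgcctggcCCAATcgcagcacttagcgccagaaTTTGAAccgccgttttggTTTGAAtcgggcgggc
In Cdc20 the CHR lies between a pair of CCAAT boxes within the last 63 bases before the start site. Cdk1 carries 2 CHR and 3 CCAAT matches, and so does Mki67. In Kif11 both elements fit into 52 bases, with the CCAAT box farther upstream. Among all members' windows, 38 of 58 CCAAT matches and 9 of 30 CHR matches began within the 100 bases before the start site.

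**Figure D1:**
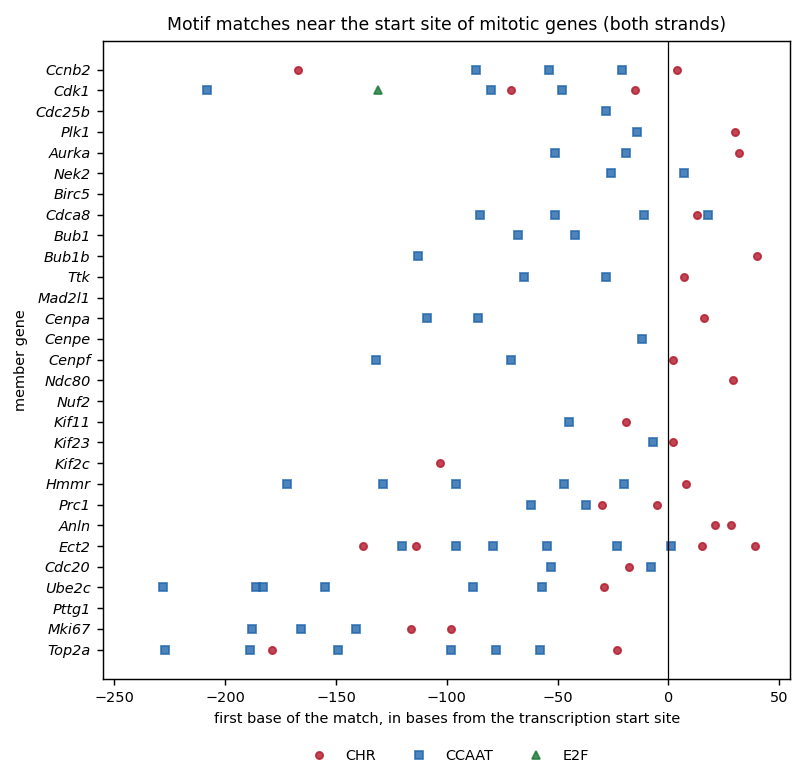
Position of each CHR, CCAAT and E2F match relative to the transcription start site (horizontal axis, in bases; the vertical line is the start) in the 29 mitotic genes with a RefSeq window (vertical axis); Ect2 and Prc1 have 2 windows each, drawn in 1 row. Of 58 CCAAT matches 55 begin upstream of the start, and of 30 CHR matches 15 begin at or after it.

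The arrays set limits that touch every value. Signals were deposited after scaling each array to a common level, which hides any change shared by most transcripts. No run label was read, and fluidics runs were inferred by parting the arrays where recorded hybridisation times lay more than 30 minutes apart. The first run so inferred held the noninduced arrays and induced replicate 1, and a later run held induced replicates 2 and 3. The noninduced arrays were also scanned before the others, so the order of scanning and the group cannot be told apart. For Itga7, the gene the construct is meant to raise, the mean signal was 693 ± 29.9 (SD, n = 3) for the tetracycline label and 792 ± 17.2 (SD, n = 3) for the noninduced label (log2 fold change -0.19, limma adjusted p = 0.181), so its probe set does not bear out the labels. The labels do not say which species or part of the transcript the construct carries, so the probe set may not report the construct at all. The treated arrays are therefore named by their label throughout, and each direction rests on it. Of the myoblast markers 6 of 8 exceeded the signal filter described next, Des, Myod1, Myf5, Cdh15, Chrna1 and Itga7, while Pax7 and Msc lay under it. The summed signal of the 8 myoblast markers did not overlap between the groups, with 6686 to 6786 on noninduced arrays and 6224 to 6499 on those labelled induced. Myod1 (-0.17), Chrna1 (-0.12) and Itga7 were each lower without overlap on the log2 scale, with limma adjusted p of 0.261, 0.227 and 0.181. Cdh15 (-0.12), Myf5 (0.12) and Des (0.065) overlapped between the groups, so the markers did not share 1 direction. The part of these differences in the values of the mitotic genes was not tested. Of 15 markers of differentiating muscle 10 lay under the filter. The summed signal of the 15 was 504 to 528 on the arrays labelled induced, inside the range of 483 to 600.0 on noninduced arrays. That sum pools both directions: of the 5 above the filter 4 were negative and 1 positive, none with a limma adjusted p under 0.05. Acta1 was at 0.25 without overlap (limma adjusted p = 0.310), and Myog was lowest at -0.25 with overlap. Summed signals of macrophage and adipocyte markers were at most 344 and 169.8 on any array and overlapped between the groups. Those of 6 endothelial markers, of which 5 lay under the filter, were 70.5 to 84.1 on noninduced arrays and 55.7 to 69.5 on those labelled induced.

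No mitotic gene passed the test. Probe sets with a mean signal above the median of all probe sets (23.4) were compared on the log2(signal + 16) scale with limma, with Benjamini-Hochberg adjustment over all 22518 such probe sets and a threshold of 0.05. All 35 members exceeded the filter on every array by a wide margin, the lowest single value being 184. None of the 35 had an adjusted p under 0.05, and neither had any of their 72 tested probe sets; the background was 0.200% of probe sets (45 of 22518) and 0.306% of genes (33 of 10775). The smallest adjusted p of a gene's brightest probe set was that of Aurka, 0.0944. With no adjustment, 10 of 35 members had p under 0.05 in limma. On the arrays labelled induced 7 of them were lower, against a background of 7.99% of genes, and 3 were higher, against 7.96%. Because the RNA is of whole cultures, a different number of dividing cells and a different level of transcript per dividing cell cannot be told apart.

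The fold changes were small and lay on both sides of 0. The members ranged from -0.23 (Aurka) to 0.26 (Cdc25b) on the log2 scale, 16 negative and 19 positive, with a median of 0.0015; over all 10775 genes tested, 52.2% were negative and the median was -0.0090. The 95% interval of the log2 fold change lay wholly between -0.3 and 0.3 for 30 of 35 members, with a background of 42.3% of all genes, and between -0.6 and 0.6 for all 35, with a background of 86.5%. The members whose interval reached past 0.3 in either direction were Cdc25b, Aurka, Ndc80, Prc1 and Ect2. The median standard error was 0.058 for the members and 0.098 for all genes tested, so the typical member was measured with less error than the typical gene. Their centre depends on the probe set chosen: with the mean of each gene's probe sets the median was -0.051 and 21 of 35 members were negative. It also depends on the scaling: with arrays centred on their medians, the median of all tested probe sets was 0.083 in place of -0.010, that of the members was 0.095 and 8 of 35 members were negative. The centring added 0.093 to the log2 fold change of each of the 35 members. The 45 calls as deposited split into 27 higher and 18 lower, and the 306 calls after that centring into 294 higher and 12 lower, none of them a member.

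**Figure D2:**
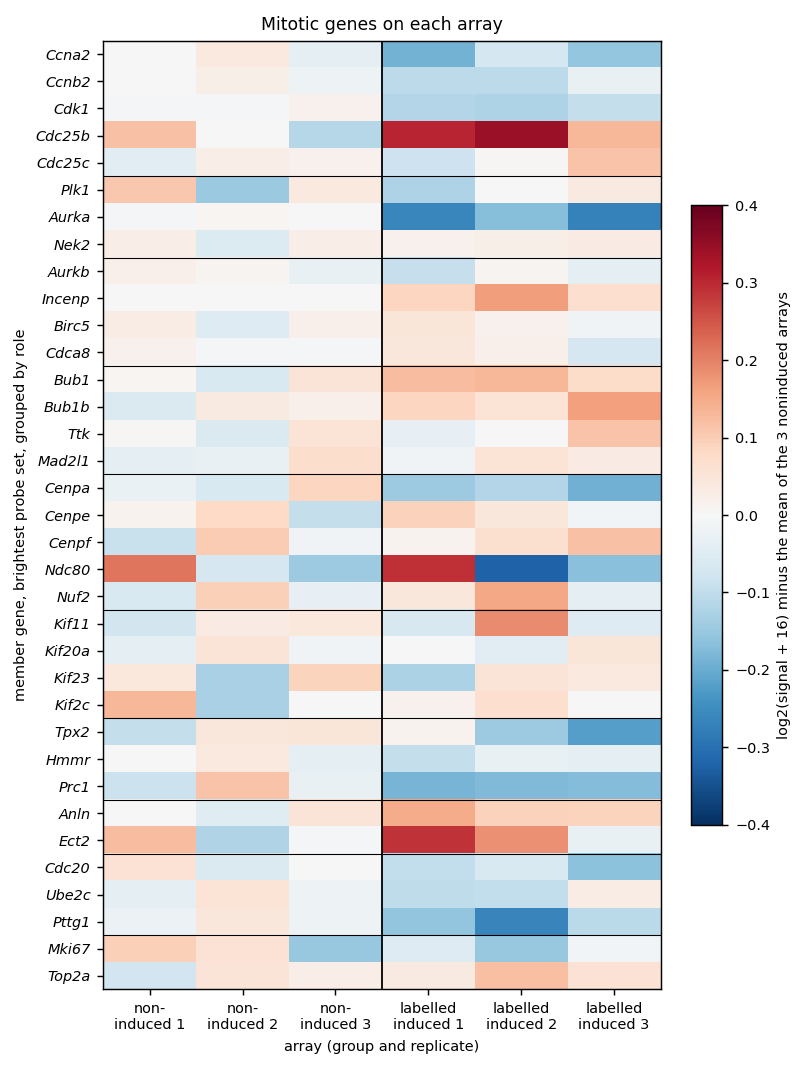
Deviation of log2(signal + 16) from the mean of the 3 noninduced arrays (colour) for the 35 mitotic genes (rows, by role; black lines part the roles) on each of the 6 arrays (columns). Aurka, Prc1, Pttg1, Cenpa, Ccna2, Ccnb2, Cdk1, Cdc20, Hmmr and Mki67 are below 0 on all 3 arrays labelled induced. Cdc25b, Anln, Bub1, Bub1b, Incenp, Nek2, Cenpf and Top2a are above 0 on all 3. The groups overlap in Hmmr, Mki67, Nek2, Cenpf and Top2a and in all rows not named here.

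The groups of 3 arrays did not overlap in 13 of 35 members, 8 lower and 5 higher on the arrays labelled induced. The background was 22.4% of all genes, 11.6% lower and 10.7% higher. The share of 37.1% among the members lies above the background, but their errors are also smaller than those of most genes, and the part this plays was not tested. With 3 against 3 arrays an exact two-sided permutation test of a single gene cannot go below p = 0.1, which each gene whose groups do not overlap reaches.

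**Figure D3:**
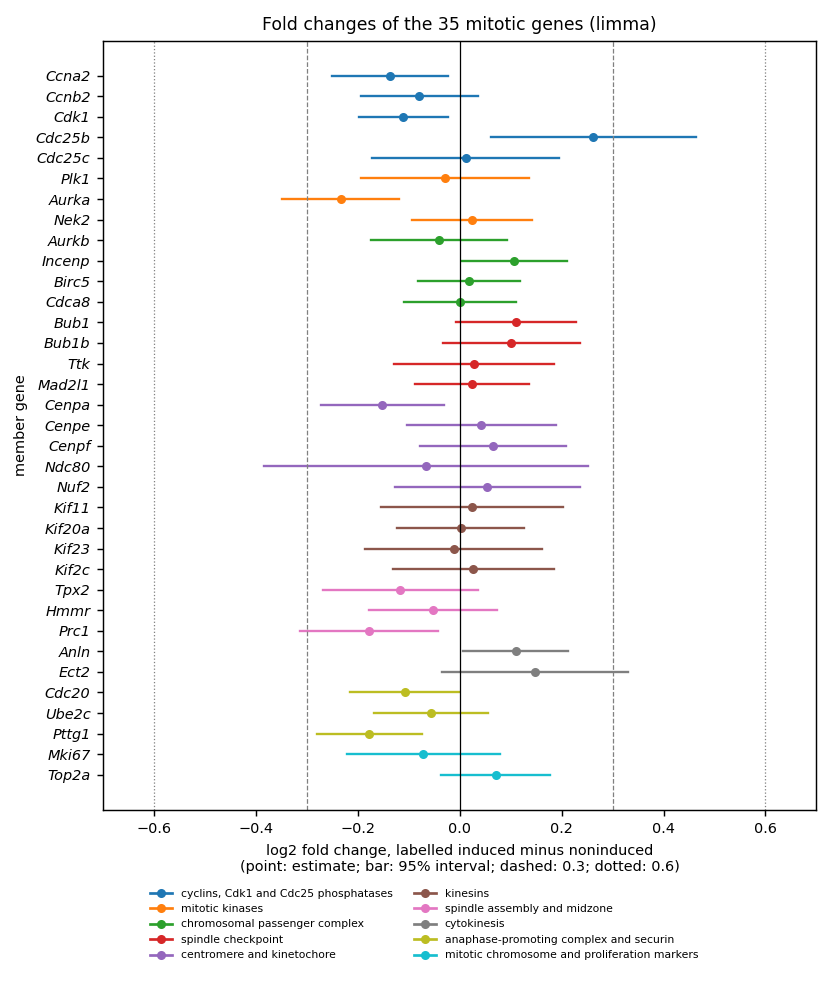
Log2 fold change of each mitotic gene (points, labelled induced minus noninduced) with its 95% interval from limma (bars), coloured by role; dashed lines mark 0.3 and dotted lines 0.6 in either direction. Every interval lies inside the dotted lines, and 30 of 35 lie inside the dashed ones.

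Among the cyclins and their kinase, values were slightly lower on the arrays labelled induced. Cdk1, the kinase that triggers mitosis, gave 3488, 3491 and 3552 on noninduced arrays 1 to 3 and 3236, 3224 and 3288 on those labelled induced. The groups do not overlap and each is tight, and the log2 fold change was -0.11 (SE 0.040, limma adjusted p = 0.235). Ccna2, cyclin A2, which serves S phase and mitotic entry, gave 1535, 1578 and 1495 against 1346, 1463 and 1379, without overlap (-0.14, SE 0.052, limma adjusted p = 0.258); its second probe set was at -0.0031. Ccnb2, cyclin B2, was at -0.079, also without overlap, and at 0.014 after median centring, which leaves Cdk1 at -0.018 and Ccna2 at -0.044.

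The Cdc25 phosphatases, which remove the inhibitory phosphates from Cdk1, gave values of different size. Cdc25b, which starts the activation of Cdk1 at the centrosome, was the member with the highest fold change: noninduced arrays read 239.5, 219 and 202, and arrays labelled induced read 275, 284 and 243. The lowest of the latter lies just above the highest of the former, and the mean was 19.9% higher on the fitted scale (log2 0.26, SE 0.092, 95% interval 0.060 to 0.46, limma adjusted p = 0.228). Cdc25c, which acts in the same step, was at 0.012 with its brightest probe set and at -0.11 with the other, its groups overlapped, and it was at -0.084 in the first fluidics run alone.

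Of the mitotic kinases, Aurka stood lowest. Aurora A, its product, matures the centrosomes and builds the spindle poles. Aurka gave 1152, 1162 and 1153 on noninduced arrays, which lie close together, and 962, 1025 and 956 on those labelled induced. All 3 of the latter were lower, 1.18-fold on the fitted scale (log2 -0.23, SE 0.053, 95% interval -0.35 to -0.12), and the limma adjusted p of 0.0944 misses the threshold. It was -0.26 for induced replicate 1 against the noninduced arrays of its own fluidics run and -0.14 after median centring. Plk1, the Polo kinase of mitotic entry and spindle assembly, overlapped between the groups at -0.029, and Nek2, which parts the centrosomes, at 0.024.

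The chromosomal passenger complex, in which Aurora B corrects chromosome attachments, lay near 0 in all but 1 member by its brightest probe sets. Its kinase Aurkb was at -0.041, its targeting subunits Birc5 (survivin) and Cdca8 (borealin) were at 0.017 and 0.00056, and all 3 overlapped between groups. A second Cdca8 probe set was lower without overlap, with 1244, 1349.8 and 1401 on noninduced arrays and 1206, 1189 and 1218 on those labelled induced (-0.14, SE 0.056, limma adjusted p = 0.274). Incenp, the scaffold, gave 1786, 1787 and 1785 on noninduced arrays and 1897, 2006 and 1872 on those labelled induced. These groups do not overlap (log2 0.11, SE 0.047, limma adjusted p = 0.324), but the 3 other tested probe sets of Incenp were at -0.079, -0.13 and -0.100. The brightest set carries the suffix of the manufacturer for sets with probes that can match other transcripts. So do the brightest sets of Aurkb, Cdc25c, Kif2c and Cdc20. Those of Nek2, Cdca8, Prc1 and Pttg1 carry a different suffix, _s_at, and whether their probes match other transcripts was not examined.

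All 4 spindle checkpoint genes among the members were positive, from 0.024 to 0.11, with none past the test. Of 10 other checkpoint and passenger genes tested, 7 were negative and 3 positive, with a median of -0.054. Bub1, a kinase at unattached kinetochores, gave 1002, 954 and 1032 on noninduced arrays and 1085, 1093 and 1049 on those labelled induced. Its groups do not overlap (log2 0.11, SE 0.054, limma adjusted p = 0.377). Bub1b, the inhibitor BubR1, was likewise without overlap at 0.101, and its second probe set was at -0.011. Ttk, the Mps1 kinase, at 0.028 and Mad2l1, the inhibitor Mad2, at 0.024 overlapped, and both were negative for induced replicate 1 alone within its fluidics run (-0.033 and -0.016).

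Centromere and kinetochore genes were split. Cenpa, the histone variant that marks the centromere, gave 1333, 1304 and 1445 on noninduced arrays and 1228, 1251 and 1187 on those labelled induced. The groups do not overlap (log2 -0.15, SE 0.055, limma adjusted p = 0.241), and the value was -0.058 after median centring. The kinetochore motor Cenpe and the outer kinetochore protein Cenpf were at 0.042 and 0.065. Nuf2 and Ndc80 form 1 microtubule-binding complex; Nuf2 was at 0.054, while Ndc80 was at -0.066 with the widest error of all members (SE 0.146). Ndc80 gave 274, 223 and 210.3 on noninduced arrays and 290.5, 184 and 207 on those labelled induced, so each group held 1 high array, and its value was 0.29 with induced replicate 1 alone.

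The 4 kinesins among the members, motors that slide, carry or dismantle spindle microtubules, lay near 0 as deposited by their brightest probe sets. Kif11 (Eg5), which pushes the spindle poles apart, was at 0.024, Kif20a and Kif23, motors of the central spindle and of cytokinesis, at 0.0015 and -0.012, and Kif2c, which depolymerises microtubules at centromeres, at 0.027. All 4 overlapped between groups, with adjusted p of 0.90 or more in limma. Their 95% intervals all lie between -0.3 and 0.3; the widest reached from -0.15 to 0.20 (Kif11). After median centring all 4 were positive, from 0.082 to 0.12, and Kif11 was at -0.065 in the first fluidics run alone. The 3 other tested probe sets of Kif2c were negative, from -0.29 to -0.030. That of Kif23 was at 0.091, and the 2 of Kif11 were at 0.0025 and 0.071.

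The 3 members of spindle assembly and of the spindle midzone were all negative as deposited, but Hmmr was positive (0.040) after median centring. Prc1, which bundles the microtubules of the midzone, gave 877, 1010 and 911 on noninduced arrays and 817, 821 and 824 on those labelled induced. The latter are nearly identical and all lower (log2 -0.18, SE 0.062, limma adjusted p = 0.223), and the second probe set of Prc1 was at -0.048. Tpx2, the activator of Aurora A on the spindle, was at -0.12 with overlap, and its 3 other probe sets were also negative, from -0.25 to -0.087. It was at 0.014 for induced replicate 1 alone within its fluidics run and with the run as a block. Hmmr, a spindle-associated protein, was at -0.053, while its other probe sets ranged from -0.23 to 0.17.

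Both cytokinesis genes among the members were positive. Anln, anillin, which organises the contractile ring, gave 1983, 1919 and 2056 on noninduced arrays and 2200, 2117 and 2113 on those labelled induced. The groups do not overlap (log2 0.11, SE 0.047, limma adjusted p = 0.312), and its second probe set was at 0.23. Ect2, the exchange factor that switches on RhoA at the cleavage furrow, gave 1179, 992 and 1076 against 1323, 1228 and 1058. Induced replicate 3 lies inside the noninduced range, and the value was 0.15 (SE 0.084, limma adjusted p = 0.44).

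The members that act with the anaphase-promoting complex, Cdc20 and Ube2c, and the securin gene Pttg1 were negative as deposited. After median centring Cdc20 was at -0.015, Pttg1 at -0.084 and Ube2c at 0.036. Of 17 further genes of the complex and its regulators, 10 were negative and 7 positive. Pttg1 encodes securin, which the complex destroys to let sister chromatids part. It gave 4757, 4985 and 4763 on noninduced arrays and 4328, 4023 and 4480 on those labelled induced. The groups do not overlap (log2 -0.18, SE 0.048, 95% interval -0.28 to -0.074, limma adjusted p = 0.136), and its 2 other probe sets were at -0.062 and -0.18.

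Cdc20, the activator of the complex at anaphase, gave 2670, 2463 and 2565 against 2392, 2458 and 2288 with its brightest probe set, where the groups are parted by only a few units (log2 -0.11, SE 0.049, limma adjusted p = 0.334). A second Cdc20 probe set was more clearly parted, with 2072, 1978 and 2108 on noninduced arrays and 1733, 1751 and 1799 on those labelled induced (-0.22, SE 0.047). Its limma adjusted p of 0.0849 was the smallest of all 72 tested probe sets of the members, and another set, which held 1 low noninduced array, was at 0.13. Ube2c, the ubiquitin-conjugating enzyme of the complex, was at -0.057 with overlap.

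The proliferation markers in common use overlapped between the groups. Mki67, the source of the Ki-67 antigen, gave 1468, 1429 and 1234 on noninduced arrays and 1323, 1236 and 1361 on those labelled induced. The ranges overlap widely (log2 -0.072, 95% interval -0.22 to 0.078, limma adjusted p = 0.673). Top2a, which untangles chromosomes before they part, gave 2521, 2761 and 2709 against 2727, 2893 and 2769, also with overlap (0.070, 95% interval -0.037 to 0.18). Its second tested probe set, with signals of 256 to 281 and 176 to 246, was at -0.29 (limma adjusted p = 0.261).

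Probe sets of the same gene often pointed in different directions. Several tested probe sets were available for 22 genes. All had the sign of the brightest one in 11 genes (Anln, Aurkb, Bub1, Ccna2, Cenpa, Cenpe, Kif11, Prc1, Pttg1, Tpx2 and Ttk), and at least 1 differed in the other 11. Of the 37 other probe sets 18 had the sign of the brightest, and of all 72 tested probe sets 41 were negative. None of the 37 passed the adjusted threshold. Another 7 of the 79 probe sets lay under the signal filter.

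**Figure D4:**
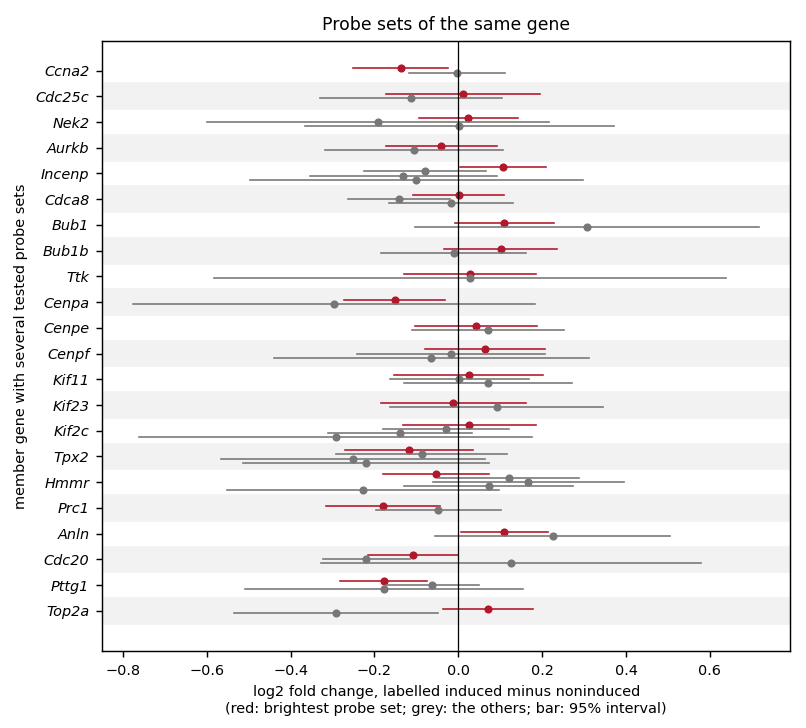
Log2 fold change (labelled induced minus noninduced) with its 95% interval for every tested probe set of the 22 mitotic genes with several (red, brightest; grey, others). In Incenp, Cdca8, Cenpf, Kif2c and Top2a every grey point lies on the other side of 0 from the red one, while in Tpx2 and Pttg1 all points are negative.

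The other genes of mitosis also lay on both sides of 0. Of 182 further genes (regulators of transcription in G2 and M, kinetochore, kinesin, cohesin, condensin, spindle, cytokinesis and anaphase-promoting complex genes), 174 were tested, 85 were negative and 89 positive, and the median was 0.0052. None passed the test, and 32 had an unadjusted p under 0.05 in limma, which is 18.4% of the list. Of these 18 were lower and 14 higher, beside a background of 7.99% and 7.96% of all genes. The extremes were Esco2, a cohesin acetyltransferase, at 0.49 (limma adjusted p = 0.0695) and E2f2, an E2F transcription factor, at -0.48 (limma adjusted p = 0.113). Other values at the ends of their lists were Cdca5 (sororin, a cohesin protector) at -0.28 and Wee1, the kinase that restrains Cdk1, at 0.27. In the list of kinesins Kif22 was at -0.37 and Kif3a, better known as a transport motor, at 0.28. Ube2s, which extends ubiquitin chains for the anaphase-promoting complex, was at -0.23 and Cdc27, a subunit of that complex, at 0.24.

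Genes of neighbouring cell cycle steps were read as lists too. In DNA replication and nucleotide supply 46 genes were tested, 23 negative and 23 positive, with a median of -0.0011. Fen1, the flap endonuclease, was the single one past the test (-0.40, limma adjusted p = 0.0151). That value is of 1 of its 2 probe sets, which carries the suffix for probes that can match other transcripts. The other probe set of Fen1 was not past the test. Of 14 tested G1 cyclins and CDK inhibitors 11 were negative and the median was -0.088, with Cdkn1b (the inhibitor p27) at 0.33 and none past the test. Ccnd2, the lowest at -0.36, exceeded the signal filter through its noninduced mean of 33.4, while its mean of 22.6 on the arrays labelled induced lies under it. The median deviation of the mitotic genes from their noninduced mean was -0.00073, 0.0076 and -0.0028 on noninduced arrays 1 to 3 and -0.016, 0.011 and -0.012 on those labelled induced. These medians are set against the noninduced mean and pool members of both signs, and the 3 values of the arrays labelled induced lie outside the noninduced range. Over all probe sets the median signal was 24.99 to 27.7 on noninduced arrays, 24.9 on induced replicate 1 and 22.9 on induced replicates 2 and 3.

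**Figure D5:**
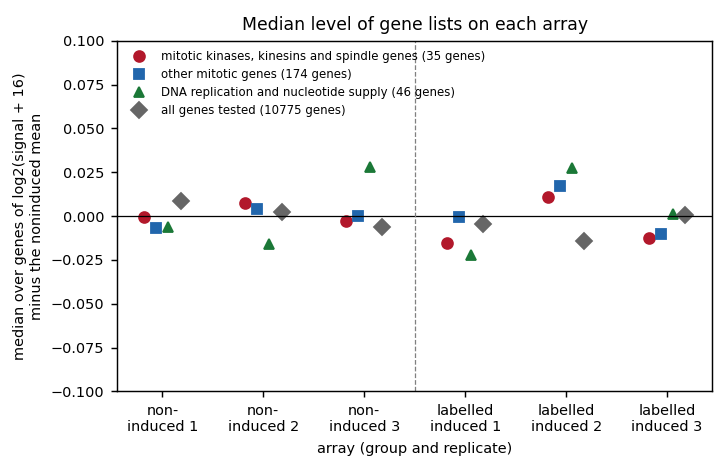
Median over genes of log2(signal + 16) minus the noninduced mean (vertical axis) on each array (horizontal axis) for 4 gene lists; 35 mitotic genes, 174 other mitotic genes, 46 DNA replication genes and all 10775 genes tested. All medians lie between -0.022 and 0.028, with both groups on both sides of 0.

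Members with both promoter elements had no common direction. Of the 18 genes with CHR and CCAAT, 11 were negative, from -0.23 (Aurka) to 0.15 (Ect2), with a median of -0.041. Of the 11 with a window but not both elements, 2 were negative, and their median was 0.027. The difference between these medians was not tested.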

How the data were processed

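Each of 6 C2C12 samples was run on its own Affymetrix Mouse430_2 array from biotin-labelled RNA, per the labels' protocols and the file headers. The authors deposited 1 linear intensity per probe set and array; the submitters' processing notes name GCOS 1.1.1. How GCOS was set, and its detection calls, are not given here. Hybridisation times in the deposited instrument records (unit other) served to infer the fluidics run. From the values, each array had been scaled to a common level: the mean after trimming 2% at each end was 150.0 on all arrays. The number of arrays limits the precision.

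Samples were grouped by title. The 64 control probe sets were left out. Gene names came from the platform annotation, and all 35 members' symbols match RefSeq (GRCm38.p6) by gene identifier. Log2(value + 16) was fitted with limma 3.58.1 in R 4.3.3 (variance trend, Benjamini-Hochberg, threshold 0.05) for the brighter 50% of probe sets (by mean signal). The fit was also tried on simulated data with independent noise and no effect of fluidics run or scan order. That simulation therefore does not bear on such effects in these arrays. Promoter windows are from RefSeq. Members and lists were chosen with earlier results of these data known. All members are named; of other lists, genes past the threshold and examples of those at either end. Alternatives changed the scaling (quantile, median centring), the filter (none, 75th percentile), the pseudocount (1, 64), the moderation (without trend, robust), the weights (per array), the blocks (replicate, fluidics run), the arrays (first run alone, each left out) and the gene value (probe sets averaged).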

Additional observations from a re-analysis of the deposited data

How the results depend on the processing

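No member passed the adjusted threshold in limma under any of the 19 alternatives, where the smallest adjusted p was 0.0613 and 3 to 10 members had an unadjusted p under 0.05. The sign held in all alternatives for 13 members (7 negative: Ccna2, Cdk1, Aurka, Cenpa, Prc1, Cdc20, Pttg1; 6 positive: Cdc25b, Bub1, Bub1b, Nuf2, Anln, Ect2), and the other 22, which changed sign in at least 1 alternative, were within 0.12 of 0 as reported, though some moved farther (Ndc80 to 0.29). The 45 calls over all probe sets became 86 with array weights, 102 with a filter at the 75th percentile, 74 with robust moderation, 306 after median centring, 1 with no filter, and 0 without a variance trend, with the fluidics run as a block or in the first run alone (both rest on induced replicate 1 as the treated array). They were 0 to 50 when 1 array was left out: induced replicate 1 left out gave 0 and induced replicate 2 gave 11, noninduced replicate 2 gave 1 and noninduced replicate 3 gave 8. With the replicate block they were 5, and the block called no member. Same-numbered samples did not deviate together (correlations 0.012, -0.063 and -0.0088). These values show no pairing by number, though 3 arrays per group cannot exclude one. The causes were not tested.

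The members' median of 0.0015 became -0.016 with the run block and in the first run alone, -0.051 with averaged probe sets, 0.095 after median centring (8 members negative) and -0.0087 after quantile normalization, and -0.016 to 0.017 when 1 array was left out. That of the other mitotic genes became -0.0094 with probe set means, 0.098 after median centring and -0.0041 after quantile normalization, and -0.0037 to 0.021 when 1 array was left out.

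Values that changed sign, none of them past the threshold, were with array weights Cdc25c -0.0012; in the first fluidics run alone, and equally with the run as a block, Cdc25c -0.084, Ttk -0.033, Mad2l1 -0.016, Ndc80 0.29, Kif11 -0.065, Kif20a -0.0012 and Tpx2 0.014; with averaged probe sets Cdc25c -0.051, Nek2 -0.055, Incenp -0.051, Cdca8 -0.052, Cenpf -0.0060, Kif23 0.040, Kif2c -0.11, Hmmr 0.016 and Top2a -0.11; after median centring Ccnb2 0.014, Plk1 0.064, Aurkb 0.053, Ndc80 0.027, Kif23 0.082, Hmmr 0.040, Ube2c 0.036 and Mki67 0.022; and after quantile normalization Cdca8 -0.013 and Kif20a -0.0087. When 1 array was left out the ranges that crossed 0 were Cdc25c -0.039 to 0.060, Plk1 -0.10 to 0.025, Nek2 -0.0027 to 0.038, Birc5 -0.0083 to 0.033, Cdca8 -0.023 to 0.034, Ttk -0.016 to 0.058, Cenpe -0.0050 to 0.082, Ndc80 -0.25 to 0.062, Kif11 -0.059 to 0.069, Kif20a -0.022 to 0.027, Kif23 -0.077 to 0.046 and Kif2c -0.039 to 0.093.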
